A study of Mus musculus with 3 samples.

Results

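The genes described here encode protein tyrosine phosphatases, dual-specificity phosphatases and a Sprouty protein, the enzymes and inhibitors that switch off signals from receptor tyrosine kinases and mitogen-activated protein (MAP) kinases. They comprise every gene on the array whose name begins with Ptpn, Ptpr, Ptp4a or Dusp, or with Spry or Spred followed by a digit. This gave 34 gene names of 18118 on the array, measured by 38 probes of 20371, and Dusp14, Dusp19, Ptpn2 and Ptpra had 2 probes each. The members comprised 6 MAP kinase phosphatases, 3 atypical dual-specificity phosphatases, 3 phosphatases of regenerating liver (PRL), 8 non-receptor and 11 receptor-type tyrosine phosphatases, and 1 Sprouty gene, Spry4, with 0 Spred genes. The remaining 2, Ptprcap and Ptpns1 (now named Sirpa), share the prefix but encode membrane proteins that bind phosphatases and have no phosphatase activity. Ptpn8 is the array's older name for Ptpn22.

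Mesenchymal and epithelial states of mouse ovarian surface epithelium, the single layer of cells that covers the ovary, were compared on 2-colour Agilent oligonucleotide arrays. The cells came from ovaries of superovulated and mated virgin C57/Bl6 females and were grown without antibiotics in equal parts of DMEM, F12, MCDB-105 and 199 medium. Of each of 3 separate cultures, the mesenchymal part was held in 15% fetal bovine serum for 1 week. The epithelial part was kept in 2.5% serum. The sample titles describe the epithelial and mesenchymal parts as before and after an epithelial-mesenchymal transition (EMT). Both parts were harvested at 80% confluence, and both RNAs of each culture shared 2 arrays that differed in which RNA carried which dye, giving 6 arrays and n = 3 cultures. No gene was altered and no pathway inhibitor was added, so the phenotype and the serum concentration cannot be told apart. In such bulk RNA, fewer cells of a type and less RNA per cell cannot be told apart either.

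Tyrosine phosphatases remove phosphate from phosphotyrosine and so oppose receptor and cytoplasmic tyrosine kinases, although some, such as Ptpn11 (SHP2), are needed for signalling to Ras. The MAP kinase phosphatases remove phosphate from both the threonine and the tyrosine of the activation loop of ERK, JNK or p38, and several of them are themselves induced by the kinase they switch off. Sprouty proteins are a second feedback arm, induced by growth factors and blocking the route from receptors to Ras and ERK. In epithelia, several receptor-type phosphatases sit at cell-cell contacts and act on cadherin-catenin complexes.

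All 38 member probes were flagged well above background for both RNAs on all 6 arrays, and 36 had a value in each of the 3 cultures. The flag says little of detection, since 18.5% to 81.5% of negative control spots carried it on an array. Over all probes, log2 ratios turned to mesenchymal over epithelial correlated at 0.81 to 0.93 between arrays of the same dye orientation and at -0.53 to -0.14 between arrays of opposite orientation. After the 2 arrays of a culture were averaged, cultures 2 and 3 correlated at 0.88 and culture 1 with them at 0.59 and 0.63. On the array of culture 3 that had the mesenchymal RNA in Cy3, 1639 probes were flagged as outliers, against 61 to 467 on the other arrays. The number of cultures limits the precision of every value below.

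Of the 38 member probes, 10 passed the threshold (limma, Benjamini-Hochberg adjusted p under 0.05 over all probes), a share of 26.3%, against 11.3% of the 20185 probes tested and 16.6% of probes whose gene ID matched the RefSeq gene table. The 3 that were higher in mesenchymal cells were Ptprn, Dusp6 and Ptpn1, where 5.6% of all probes were higher. The 7 that were lower were Ptprd, Ptpn13, Dusp9, Dusp8, Ptprk and both Dusp14 probes, where 5.66% of all probes were lower. The members' median log2 ratio of mesenchymal over epithelial was -0.023, against -0.003 over all probes, and their median absolute log2 ratio was 0.19, against 0.0964. Of the 38 members, 2 were called with a change of at least 2-fold, Ptprn and Ptprd (5.26%), against 353 of the 20185 probes tested (1.75%). The sign was the same in all 3 cultures for 24 of 36 members measured in 3 cultures, against 44.6% of all such probes. The count depended on which cultures entered: without culture 1 it was 8 higher and 12 lower, without culture 2 it was 2 and 6, and without culture 3 it was 1 and 3. The number called over all probes changed widely between these fits as well, over the range given in the last section. The 4 probes called in every one of these fits were those of Ptprn, Ptprd and Ptpn13 and 1 of the 2 for Dusp14.

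**Figure D1:**
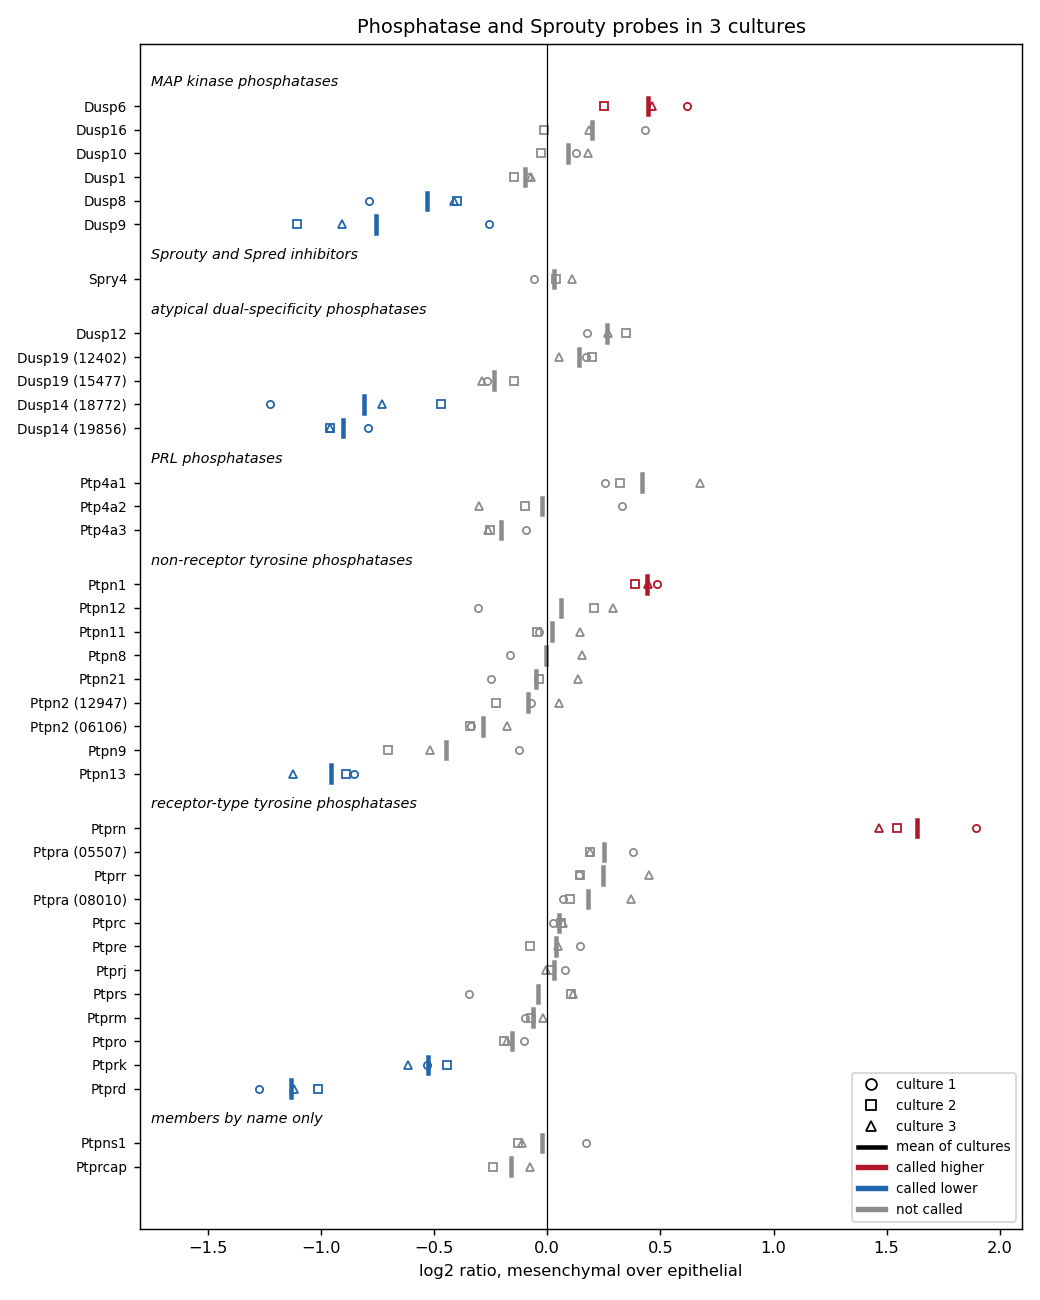
Log2 ratio of mesenchymal over epithelial RNA for each of the 38 member probes, grouped by role, with 1 open symbol per culture and a bar at the mean of the cultures. Most probes lie near 0, while Ptprn stands at 1.64 and Ptprd at -1.13.

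Among the MAP kinase phosphatases, 1 of 6 genes was higher in mesenchymal cells, 2 were lower and 3 did not pass, with a median log2 ratio of -0.004. Dusp6 (MKP-3), the cytoplasmic phosphatase specific for ERK and a standard readout of ERK activity, was higher. Its normalised log2 intensities (each RNA's own signal after normalisation, averaged over the 2 arrays of a culture) were 13.59, 13.50 and 13.43 in mesenchymal cells of cultures 1 to 3, against 12.97, 13.25 and 12.97 in epithelial cells. Every mesenchymal value lay above every epithelial one, and the log2 ratio was 0.44 ± 0.18 (SD, n = 3; limma adjusted p = 0.0309). Dusp9 (MKP-4), a second cytoplasmic ERK phosphatase, moved the other way. Its intensities were 14.03, 13.51 and 13.68 in mesenchymal cells, against 14.28, 14.61 and 14.58 in epithelial cells. The groups did not overlap, but the difference was small in culture 1 (-0.26) and larger in cultures 2 and 3 (-1.10 and -0.91), with a mean of -0.76 ± 0.44 (SD, n = 3; limma adjusted p = 0.0359). Dusp8, which acts on JNK and p38, was lower as well. It measured 10.56, 10.46 and 10.14 in mesenchymal cells, against 11.35, 10.86 and 10.55 in epithelial cells. These levels overlapped between cultures, while within each culture the mesenchymal value was the lower one, with a log2 ratio of -0.53 ± 0.22 (SD, n = 3; limma adjusted p = 0.0228).

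None of the 3 MAP kinase phosphatase calls held without culture 3, where log2 ratios stayed close at 0.43 for Dusp6, -0.68 for Dusp9 and -0.59 for Dusp8 and the limma adjusted p was 0.197, 0.193 and 0.0987. Dusp9 also missed the threshold without culture 2 (log2 ratio -0.58, limma adjusted p = 0.0998), and Dusp6 missed it with a trended, robust variance (adjusted p = 0.0628).

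Dusp1 (MKP-1), the nuclear immediate early phosphatase induced by serum and stress, measured 10.66, 10.69 and 11.02 in mesenchymal cells, against 10.74, 10.83 and 11.09 in epithelial cells. The ranges overlapped, and the log2 ratio of -0.10 ± 0.04 (SD, n = 3; limma adjusted p = 0.491) had a 95% interval of -0.27 to 0.07. Dusp10 (MKP-5) and Dusp16 (MKP-7), which prefer p38 and JNK, had log2 ratios of 0.09 ± 0.11 and 0.20 ± 0.22 (SD, n = 3 each; limma adjusted p = 0.581 and 0.321). The interval for Dusp16, -0.05 to 0.44, still holds a change of the size seen for Dusp6. Of the cytoplasmic ERK phosphatases measured, Dusp6 was thus higher and Dusp9 lower.

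The promoter windows of Dusp6, Dusp8 and Dusp1 are shown because these genes had a higher level, a lower level and no call within 1 family. The windows run from 250 bases before to 50 after the annotated start, from RefSeq on GRCm38.p6, and 25 of the 34 genes had at least 1. They were searched on both strands for TGANTCA (AP-1), CCGGAANT (ETS) and TGACGTC (the cyclic AMP response element, CRE), and matches are in capitals, with overlapping matches of the 2 strands joined into 1 stretch.
Dusp6, chr10:99262981-99263280, plus strand: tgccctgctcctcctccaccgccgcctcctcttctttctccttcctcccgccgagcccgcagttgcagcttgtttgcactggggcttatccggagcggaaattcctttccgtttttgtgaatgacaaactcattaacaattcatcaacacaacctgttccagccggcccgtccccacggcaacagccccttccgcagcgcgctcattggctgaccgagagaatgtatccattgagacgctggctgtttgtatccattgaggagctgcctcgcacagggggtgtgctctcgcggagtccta
Dusp8, chr7:142095235-142095534, minus strand: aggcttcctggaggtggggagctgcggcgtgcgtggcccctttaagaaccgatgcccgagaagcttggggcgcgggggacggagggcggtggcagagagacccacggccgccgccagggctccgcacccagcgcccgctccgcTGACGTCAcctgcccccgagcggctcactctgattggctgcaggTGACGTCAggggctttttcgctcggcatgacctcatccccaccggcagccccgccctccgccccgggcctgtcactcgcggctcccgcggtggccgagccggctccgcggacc
Dusp1, chr17:26508423-26508722, minus strand: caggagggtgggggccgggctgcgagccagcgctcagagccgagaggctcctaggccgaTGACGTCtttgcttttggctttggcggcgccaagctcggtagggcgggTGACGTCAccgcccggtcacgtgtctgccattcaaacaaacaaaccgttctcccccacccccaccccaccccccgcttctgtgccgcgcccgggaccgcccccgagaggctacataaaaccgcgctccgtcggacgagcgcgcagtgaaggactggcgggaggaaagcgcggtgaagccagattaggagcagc
The Dusp6 window held none of the 3 motifs. Those of Dusp8 and Dusp1 each held 2 CRE stretches. Over the 36 member windows, 6 held a CRE (16.7%), against 3.21% of 32851 RefSeq windows, and the genes were Dusp1, Dusp8, Ptp4a1, Ptpn11, Ptprk and Ptprs. A single member window held AP-1 (Ptpre, 2.78% against 7.81% of all windows), and a single one held ETS (Ptpn1, 2.78% against 5.66%). A match describes letters in the window and says nothing of a factor's binding.

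Spry4, the Sprouty member, measured 10.52, 10.90 and 11.37 in mesenchymal cells, against 10.58, 10.87 and 11.26 in epithelial cells. The ranges coincided, and the log2 ratio of 0.03 ± 0.09 (SD, n = 3; limma adjusted p = 0.881) had a 95% interval of -0.15 to 0.21. A change of the size seen for Dusp6 lies outside that interval.

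Of the atypical dual-specificity phosphatases, which lack the kinase-docking domain of the MAP kinase phosphatases, Dusp14 was lower on both probes and Dusp12 and Dusp19 did not pass. Dusp14 (MKP-6) can act on JNK, p38 and ERK. Its probe A_65_P19856 measured 10.64, 10.42 and 10.42 in mesenchymal cells, against 11.43, 11.38 and 11.38 in epithelial cells. The epithelial values were nearly equal and lay well above all mesenchymal ones, with a log2 ratio of -0.90 ± 0.10 (SD, n = 3; limma adjusted p = 0.00146), a 1.87-fold lower level. The other probe, A_65_P18772, gave 10.85, 11.06 and 10.46 in mesenchymal cells, against 12.08, 11.53 and 11.19 in epithelial cells. It was lower too, at -0.81 ± 0.39 (SD, n = 3; limma adjusted p = 0.02), but with a dye effect of -1.29 log2 units, larger than the ratio, and its call was lost without culture 3 (adjusted p = 0.0951). Dusp12, a phosphatase with a zinc-binding domain, was above 0 on all 6 arrays at 0.27 ± 0.09 without passing the test (SD, n = 3; limma adjusted p = 0.0792). The 2 probes for Dusp19, a JNK pathway phosphatase, had opposite signs, 0.14 ± 0.08 and -0.23 ± 0.08, and neither passed (SD, n = 3 each; limma adjusted p = 0.33 and 0.108).

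The PRL phosphatases are small enzymes anchored to membranes by a lipid tail and known for promoting motility and metastasis. None of the 3 passed the limma test, and 2 had an unadjusted p under 0.05. Ptp4a1 (PRL-1) came nearest, with 13.60, 13.85 and 13.27 in mesenchymal cells, against 13.35, 13.53 and 12.59 in epithelial cells. The mesenchymal value was the higher one in each culture, though the ranges overlapped, and the log2 ratio was 0.42 ± 0.23 (SD, n = 3; limma adjusted p = 0.0518). Its dye effect of -0.90 log2 units exceeded the ratio, so that the 3 arrays with mesenchymal RNA in Cy5 lay between -0.71 and -0.33 and the 3 with it in Cy3 between 0.92 and 1.68. The probe passed under some other settings, for example on the scanner software's processed signals (adjusted p = 0.0376) and without culture 1 (log2 ratio 0.50). It did not pass without culture 2 (0.47, limma adjusted p = 0.112) or without culture 3 (0.29, adjusted p = 0.303). Nor did it pass with a trended, robust variance (adjusted p = 0.0882) or with single arrays in a block and no dye term (adjusted p = 0.202). With a dye term, added after seeing the data, that block fit gave a limma adjusted p of 0.0457. Ptp4a2 (PRL-2) had log2 ratios of 0.33, -0.10 and -0.30 in cultures 1 to 3, a mean of -0.02 ± 0.32 with no common direction (SD, n = 3; limma adjusted p = 0.948), and its spot was saturated for each RNA on 1 array. Ptp4a3 (PRL-3) had -0.20 ± 0.09 (SD, n = 3; limma adjusted p = 0.164).

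Among 9 probes for non-receptor tyrosine phosphatases, 1 was higher, 1 was lower and 7 did not pass, with a median log2 ratio of -0.05. Ptpn1 (PTP1B), which is held on the endoplasmic reticulum and dephosphorylates the insulin receptor and other receptor kinases, was higher. It measured 13.84, 13.79 and 13.72 in mesenchymal cells, against 13.35, 13.40 and 13.27 in epithelial cells. The groups were well separated, each of the 6 arrays lay between 0.33 and 0.56, and the log2 ratio was 0.44 ± 0.05 (SD, n = 3; limma adjusted p = 0.0125). With 2 cultures alone the call depended on which: the limma adjusted p was 0.0619 without culture 2 and 0.125 without culture 3, at log2 ratios of 0.47 and 0.44. Its promoter window, shown because it was the one member window with an ETS match (in capitals, on the reverse strand, within the bases after the start), reads as follows.
Ptpn1, chr2:167932077-167932376, plus strand: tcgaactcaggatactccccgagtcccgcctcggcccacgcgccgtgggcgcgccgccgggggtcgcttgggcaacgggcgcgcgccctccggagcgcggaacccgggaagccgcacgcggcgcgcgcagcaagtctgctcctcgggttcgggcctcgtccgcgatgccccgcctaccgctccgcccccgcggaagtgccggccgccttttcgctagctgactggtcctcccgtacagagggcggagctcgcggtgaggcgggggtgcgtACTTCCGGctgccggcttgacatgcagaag

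Ptpn13 (PTP-BL), a large cytoplasmic phosphatase with a FERM domain and several PDZ domains that bind receptors and junction proteins, was lower. It measured 13.16, 12.86 and 12.92 in mesenchymal cells, against 14.01, 13.75 and 14.04 in epithelial cells. All 6 arrays were below 0, and the log2 ratio was -0.95 ± 0.15 (SD, n = 3; limma adjusted p = 0.00171), a 1.94-fold lower level. It stood 237th from the lowest of all probes tested.

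Ptpn11 (SHP2) and Ptpn12 (PTP-PEST, which acts on the focal adhesion protein p130Cas) had log2 ratios of 0.02 ± 0.11 and 0.06 ± 0.32 (SD, n = 3 each; limma adjusted p = 0.92 and 0.845). Their 95% intervals were -0.17 to 0.21 and -0.25 to 0.37. The Ptpn12 probe had a dye effect of -1.11, and whether this bears on its spread between cultures was not tested. Ptpn9 (PTP-MEG2), found on secretory vesicles, had log2 ratios of -0.13, -0.71 and -0.52 in cultures 1 to 3 and did not pass the test (mean -0.45 ± 0.30, SD, n = 3; limma adjusted p = 0.0698). The probes for Ptpn2 (TC-PTP, the nuclear relative of Ptpn1) had -0.28 ± 0.09 on A_65_P06106 and -0.08 ± 0.14 on A_65_P12947, and neither passed (SD, n = 3 each; limma adjusted p = 0.0656 and 0.662). Ptpn21 lay at -0.05, and Ptpn8, measured in 2 cultures, lay at -0.01 (limma adjusted p = 0.831 and 0.989).

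Among 12 probes for 11 receptor-type tyrosine phosphatases, 1 was higher, 2 were lower and 9 did not pass, with a median log2 ratio of 0.034. Ptprn (IA-2), a receptor-like protein of dense-core secretory vesicles in neuroendocrine cells whose phosphatase domain is catalytically inactive, had the largest ratio of all members. It measured 11.17, 10.78 and 10.85 in mesenchymal cells, against 9.28, 9.24 and 9.38 in epithelial cells. Every mesenchymal value was far above every epithelial one, and the log2 ratio was 1.64 ± 0.23 (SD, n = 3; limma adjusted p = 0.000555), a 3.11-fold higher level that stood 41st from the highest of all probes tested. Its 2 promoter windows held none of the 3 motifs.

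Ptprd, a receptor-type phosphatase of the LAR family that mediates adhesion at synapses and is a tumour suppressor in several human cancers, was lower. It measured 11.01, 11.13 and 10.91 in mesenchymal cells, against 12.28, 12.14 and 12.03 in epithelial cells. The groups were about 1 log2 unit apart with little spread, the log2 ratio was -1.13 ± 0.13 (SD, n = 3; limma adjusted p = 0.000891), a 2.2-fold lower level, and the probe stood 156th from the lowest. Ptprs, its LAR family relative, had -0.04 ± 0.26 (SD, n = 3; limma adjusted p = 0.886).

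Ptprk, whose extracellular part binds itself on neighbouring cells and which acts on catenins at junctions, was lower. It measured 13.02, 12.67 and 12.71 in mesenchymal cells, against 13.55, 13.11 and 13.33 in epithelial cells. The groups were separated by a narrow margin, all 6 arrays were below 0, and the log2 ratio was -0.53 ± 0.09 (SD, n = 3; limma adjusted p = 0.00814). Without culture 3 the limma adjusted p was 0.0979, at a log2 ratio of -0.49. Ptprm, of the same homophilic subfamily, had -0.06 ± 0.04 (SD, n = 3; limma adjusted p = 0.701), with a 95% interval of -0.23 to 0.11. The promoter window of Ptprk is shown because it is that of a called member with a CRE match (in capitals).
Ptprk, chr10:28074570-28074869, plus strand: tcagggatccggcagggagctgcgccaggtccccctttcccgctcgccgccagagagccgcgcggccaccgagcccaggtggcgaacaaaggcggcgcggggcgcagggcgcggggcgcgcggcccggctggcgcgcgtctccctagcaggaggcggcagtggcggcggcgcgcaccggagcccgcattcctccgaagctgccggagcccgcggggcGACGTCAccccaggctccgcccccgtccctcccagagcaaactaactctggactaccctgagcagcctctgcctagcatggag

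The 9 receptor-type probes that did not pass ranged from -0.16 to 0.25. Ptprj (DEP-1), a phosphatase linked to contact inhibition of growth, had 0.03 ± 0.04 (SD, n = 3; limma adjusted p = 0.867), and its 95% interval of -0.14 to 0.20 leaves out changes of the size of Ptprk. The Ptpra probe A_65_P05507 and Ptprr, a phosphatase that docks on ERK, were above 0 on all 6 arrays, at 0.25 ± 0.11 and 0.25 ± 0.18 (SD, n = 3 each; limma adjusted p = 0.104 and 0.162). Ptprc (CD45), the leukocyte phosphatase, measured 8.27, 8.23 and 8.90 in mesenchymal cells, against 8.24, 8.17 and 8.83 in epithelial cells, with no separation. Ptpro lay above the 95th percentile of the negative control spots on 4 of 6 arrays and the Ptpra probe A_65_P08010 (log2 ratio 0.18) on 5. The members by name, Ptprcap and Ptpns1, had log2 ratios of -0.16 and -0.02 (limma adjusted p = 0.444 and 0.922), the first from 2 cultures. Ptpn14 and Ptprf, which are also known at epithelial junctions, were not analysed here.

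**Figure D2:**
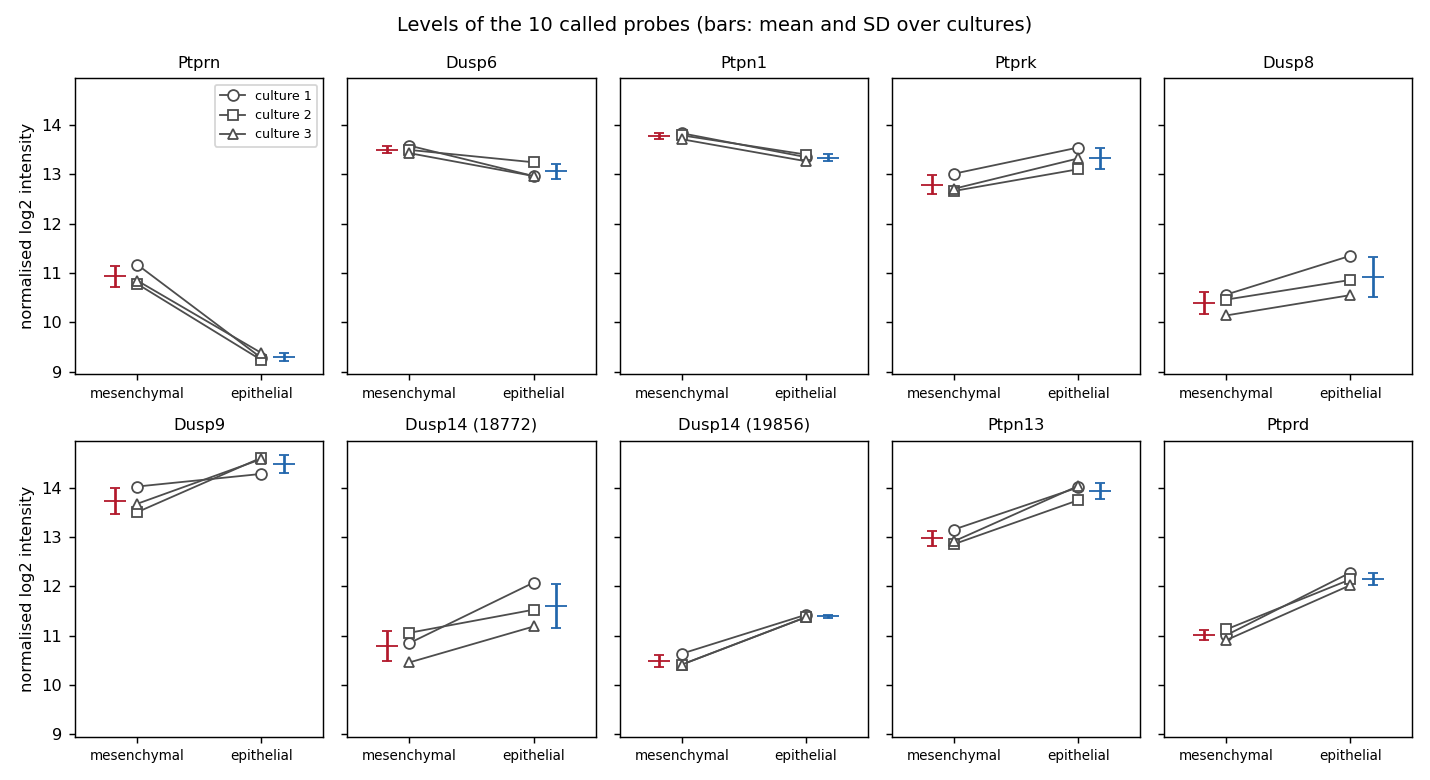
Normalised log2 intensity of the 10 called probes in mesenchymal (left) and epithelial (right) cells, with lines joining the 2 parts of a culture and bars for the mean and SD over 3 cultures. The groups are separate in every panel except that of Dusp8, whose cultures overlap although the mesenchymal point is the lower one in each culture. The panels were chosen by their difference, which favours separate groups. Of the members not called, 6 had separate groups too, and the share over all probes was not counted.

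The dyes mattered for single arrays. A dye effect passed the test for 57.7% of all probes and for 23 of the 38 members, and the SD over probes of the dye effect was 0.469 among members, against 0.481 for the log2 ratio itself. Averaging the 2 arrays of a culture cancels it as far as it is equal on both, which was not tested. Before averaging, 10 of the 36 members measured on all 6 arrays kept one sign on them, against 11.8% of all probes measured on 6. Of the 10 called probes, 7 were among them and 3 were not. Dusp8 gave -1.30, -1.08 and -1.10 with mesenchymal RNA in Cy5, and -0.27, 0.28 and 0.27 with it in Cy3. Dusp14 probe A_65_P18772 gave -2.56, -1.65 and -2.07 with mesenchymal RNA in Cy5, and 0.11, 0.71 and 0.61 with it in Cy3. Dusp9 gave 0.25, -0.62 and -0.38 with mesenchymal RNA in Cy5, and -0.76, -1.59 and -1.43 with it in Cy3. For these probes the direction rests on the mean of both orientations.

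**Figure D3:**
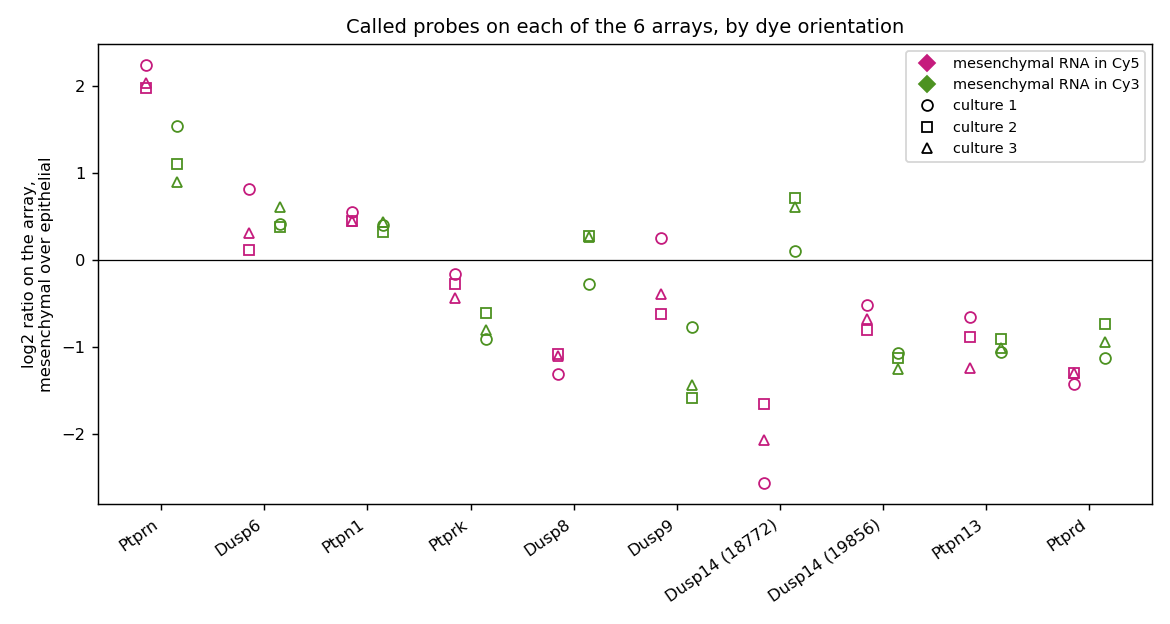
Log2 ratio of mesenchymal over epithelial RNA for each called probe on each of the 6 arrays, coloured by the dye of the mesenchymal RNA, with 1 symbol shape per culture. Dusp8, Dusp9 and 1 Dusp14 probe have arrays on both sides of 0, and the remaining 7 probes have all arrays on one side.

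The genes around these phosphatases were counted in lists of receptors, adaptors, kinases and targets. Of 129 genes listed, 97 were measured on their brightest probe, 13 were higher, 8 were lower and 76 did not pass, with a median log2 ratio of -0.022, where 16.6% of probes with a matched gene ID were called. Without culture 1 the number called was 45, without culture 2 it was 16 and without culture 3 it was 11, against 21 with all 3 cultures. The share of 16.6% belongs to the fit of all 3 cultures, and the number called over all probes also changed widely when a culture was left out. In the list of immediate early and ERK target genes, 7 of 18 were higher and 2 were lower, with a median log2 ratio of 0.027. Ereg (epiregulin, a ligand of the EGF receptor) had 1.20 ± 0.05, Egr1 0.87 ± 0.37 and Fosl1 (Fra-1, an AP-1 subunit) 0.86 ± 0.05, all above 0 on all 6 arrays (SD, n = 3 each; limma adjusted p = 0.000455, 0.0134 and 0.00135). Srf, the serum response factor, was lower at -0.65 ± 0.01 (SD, n = 3; limma adjusted p = 0.00318), while its dimmer probe gave -0.13. Also called were Elk3, Junb, Ier3 and Etv4, higher at 0.64, 0.59, 0.50 and 0.40, and Plaur, lower at -0.46 (limma adjusted p = 0.0049, 0.0474, 0.0148, 0.0236 and 0.0156), while the dimmer Elk3 probe gave -0.06. The other 9 genes of the list did not pass, among them Fos at 0.12 and Etv5 at -0.10 (limma adjusted p = 0.555 and 0.631).

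Of 13 receptor tyrosine kinases measured, Pdgfrb was higher at 2.50 ± 0.17 (SD, n = 3; limma adjusted p = 0.000133), and Pdgfra and Met were lower at -0.84 ± 0.27 and -0.42 ± 0.15 (SD, n = 3 each; limma adjusted p = 0.00718 and 0.0288). The Met probe was saturated for mesenchymal RNA on 1 array and for epithelial RNA on 3, which limits its ratio, and its dimmer probe gave -0.03 (limma adjusted p = 0.896). Pdgfra, Pdgfrb and Met encode the 2 receptors for platelet-derived growth factors and the receptor for hepatocyte growth factor. Of 10 genes of the ERK cascade, Map2k1 (MEK1, the kinase that activates ERK) was lower at -0.86 ± 0.19 on its brighter probe and -0.73 on the other, both past the threshold (limma adjusted p = 0.00357 and 0.00315). Lamtor3, a scaffold for MEK1, was higher at 0.56 ± 0.11 (SD, n = 3; limma adjusted p = 0.00786), with 0.18 on its dimmer probe. Among 11 Ras genes and regulators, Rasa3, which turns Ras off, was higher at 1.08 ± 0.11, and Rras2 was lower at -0.51 ± 0.19 (SD, n = 3 each; limma adjusted p = 0.000904 and 0.02). Among 9 adaptors, Irs1, the insulin receptor substrate, was higher at 0.91 ± 0.05, and Sos1, the Ras exchange factor, was lower at -0.59 ± 0.10 (SD, n = 3 each; limma adjusted p = 0.00117 and 0.00615). The dimmer probes of these adaptors did not pass, with 0.02 for Irs1 and 0.03 and -0.11 for Sos1 (limma adjusted p = 0.911, 0.878 and 0.624).

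Among 8 other feedback inhibitors, Socs3, which restrains JAK and STAT signalling, and Errfi1 (Mig-6), which binds and inhibits the EGF receptor, were higher at 0.74 ± 0.21 and 0.70 ± 0.06 (SD, n = 3 each; limma adjusted p = 0.00658 and 0.00282). Lrig3, a transmembrane regulator of receptor kinases, was lower at -0.86 ± 0.13 (SD, n = 3; limma adjusted p = 0.00212). On their brightest probes, none of 10 stress MAP kinase genes passed the limma test, with log2 ratios between -0.19 and 0.13, and 0 had an unadjusted p under 0.05. Likewise none of 18 tyrosine kinases and phosphatase substrates passed, with -0.27 to 0.31, and 5 had an unadjusted p under 0.05. Among dimmer probes, those of Map3k7 and the adaptor Gab1 passed, at -0.32 and -0.45 (limma adjusted p = 0.038 and 0.0141). Of the lower genes, Pdgfra, Met, Rras2 and Map2k1 had arrays on both sides of 0. Of the higher genes, Junb, Ier3 and Etv4 did so too, each with 1 array below 0.

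**Figure D4:**
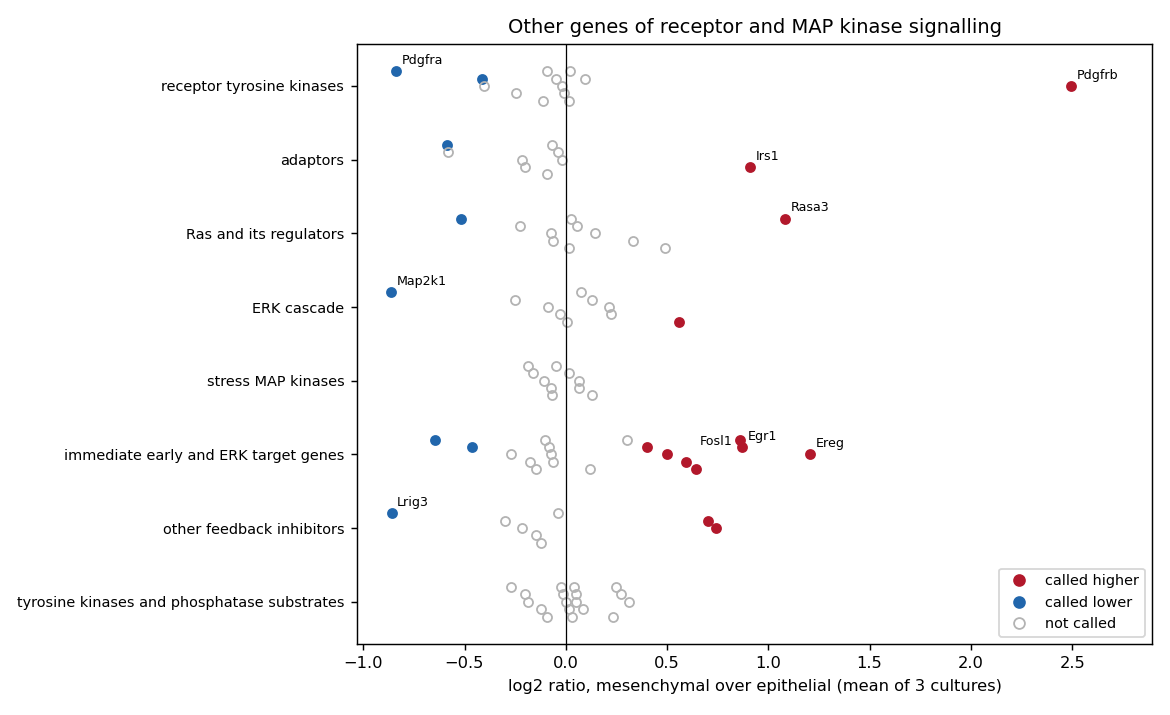
Mean log2 ratio over the cultures, mesenchymal over epithelial, for each measured gene of 8 lists (brightest probe), with filled points for called genes and names for those with an absolute ratio of at least 0.8. The list of immediate early and ERK target genes holds 7 higher and 2 lower genes, while no gene of the stress MAP kinase list or of the kinase and substrate list is filled.

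The label of the cells was set against marker lists. Of 7 measured markers of ovarian surface epithelium, 6 were lower in mesenchymal cells, among them Msln at -2.07 ± 0.27 and Gpm6a at -2.98 ± 0.22 (SD, n = 3 each; limma adjusted p = 0.000409 and 0.000133), and their summed level was 17.08 to 17.34 in mesenchymal cells, against 18.15 to 18.28 in epithelial cells on the log2 scale. Both sums are lower limits, since the Krt8 probe was saturated on 3 arrays for each RNA. For epithelial RNA, the Krt7 probe was also saturated on all 6 arrays and that of Krt19 on 2. The 7 leukocyte markers measured, Ptprc among them, had 0 called by limma and 0 with an unadjusted p under 0.05, with summed levels of 14.41 to 15.02 in mesenchymal cells, against 14.38 to 15.10 in epithelial cells. The 5 endothelial markers had 0 called and 2 with an unadjusted p under 0.05, with 13.77 to 14.46 in mesenchymal cells, against 13.60 to 14.61 in epithelial cells. Of markers of granulosa cells, 2 of 8 were lower, of theca and stroma 1 was higher and 2 were lower of 8, and of smooth muscle and pericytes 1 of 6 was lower. Their summed levels were 14.39 to 14.97, 14.66 to 15.14 and 15.18 to 15.36 in mesenchymal cells, against 14.50 to 15.15, 15.12 to 15.37 and 16.07 to 16.29 in epithelial cells. The smooth muscle sum rests mainly on Acta2, an actin also used as a mesenchymal marker, which was lower at -1.19 ± 0.06 (SD, n = 3; limma adjusted p = 0.000465) with its probe saturated for epithelial RNA on 5 arrays. Cdh1 and Cdh2, the epithelial and the neural cadherin, had 0.23 and 0.31 and did not pass (limma adjusted p = 0.0978 and 0.162). No list of mesenchymal markers was set against the label. The part of these other cell types in the members' differences was not tested.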

How the data were processed

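Each of 3 cultures gave a mesenchymal and an epithelial RNA, hybridised together on 2 dye-swapped arrays. The authors' deposited scanner files, from Agilent Feature Extraction per the file headers, hold spot intensities and local backgrounds on a linear scale and a log10 ratio of Cy5 over Cy3. From the values, the authors' deposited value table holds the mean of a culture's 2 log10 ratios once both are turned to mesenchymal over epithelial (correlation 1, medians 0.00555, -0.0101 and -0.00233), which settles scale and centring. Per the submitters' processing notes, limma was used, and its settings are not given in the sources used here. The labels name both dyes for both RNAs, so the orientation of each array, and with it the direction of every ratio, comes from the dye statement in the array's name.

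From the deposited mean intensities and backgrounds, signals were corrected with normexp (offset 50, which shrinks ratios of dim probes) and normalised by loess within the array, with control spots at weight 0, in limma 3.58.1 under R 4.3.3. Log2 ratios were turned to mesenchymal over epithelial and averaged over a culture's 2 arrays, so that dye effects equal on both arrays cancel. Spots flagged as outliers were dropped, and a culture counted for a probe if both arrays remained. Probes needed the well-above-background flag for an RNA on 4 of 6 arrays, a weak filter that 43 probes failed, and values in 2 cultures, which left 20185 of 20371 probes. Per-culture log2 ratios were tested against 0 with limma (lmFit, eBayes), adjusted over all probes. The cultures are separate per the study's design text. The steps were tested on simulated data. A probe's simulated dye effect was the same on every array, so that test cannot show whether real dye effects cancel.

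Members were found by gene name on the array, and all 38 probes matched RefSeq by gene ID. Members, roles and lists were chosen with earlier results of these data known. Named here are every called member, all measured MAP kinase phosphatases and Spry4, Ptpn1, Ptpn11, Ptpn12, Ptprk, Ptprj and the PRL genes whatever their values, members whose probes disagree, and up to 4 called genes of each pathway list, on the brightest probe of a gene. Other genes are named as examples chosen after their values were seen. Alternatives covered the signal, normalisation, filters, block, dye orientation, deposited table and leaving out a culture. RefSeq promoters are of GRCm38.p6, and protein sequences were not used here. Results of some listed genes are not reported here.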

Additional observations from a re-analysis of the deposited data

How the results depend on the processing

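With all 3 cultures, 2272 probes, 3 higher and 7 lower members and 21 pathway genes were called. Ptprn (1.18 to 2.09), Ptprd (-1.34 to -0.93), Ptpn13 (-1.01 to -0.87) and Dusp14 probe A_65_P19856 (-1.14 to -0.66) kept their direction and call under every alternative run, the last without a value where the brightest probe of each gene was used. The background filter limits little, since 18.5% to 81.5% of negative control spots carried the flag on an array. Leaving out a culture gave 809 to 5875 probes, 1 to 8 higher members, 3 to 12 lower members and 11 to 45 pathway genes. With no replicate block, which ignores the pairing of the 2 RNAs of a culture, these counts were 256, 1, 3 and 4, and the calls of Dusp6, Dusp8, Dusp9, Ptpn1, Ptprk and Dusp14 probe A_65_P18772 were lost. Over 6 single arrays with culture as a random block, 5 members were higher and 7 lower without a dye term, where Dusp14 probe A_65_P18772 lost its call (adjusted p = 0.0888), and 5 and 9 with a dye term that was added after seeing the data. Arrays with epithelial RNA in Cy3 alone gave 8211 probes, 7 and 12 members and 57 pathway genes, and those with it in Cy5 alone gave 6898 probes, 9 higher members and 49 pathway genes. Members were called lower with it in Cy5 alone too, among them Ptprd, Ptpn13 and Dusp14 probe A_65_P19856. These single-orientation counts hold the dye effect by construction.

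Sign changes were few outside the single orientations and the omission of a culture. Ptpn8 was 0.038 with outlier-flagged spots kept, 0.023 and 0.060 with single arrays without and with the dye term, and 0.016 in the authors' deposited table, and Ptprcap was 0.007 with flagged spots kept. With epithelial RNA in Cy3 alone, values were -0.19 for Ptpra probe A_65_P08010, -0.48 for Ptp4a1, 0.11 for Ptpn8, -0.018 for Ptpn11, 0.030 for Ptprm, 0.072 for Dusp1, 0.31 for Ptpns1, -1.05 for Ptpn12, 0.053 for Ptpn9, -0.027 for Ptprc, 0.08 for Ptpro and 0.16 for Ptprcap. With it in Cy5 alone, values were -0.28 for Dusp16, -0.18 for Dusp10, 0.10 for Dusp8, 1.03 and 0.17 for Ptpn2 probes A_65_P12947 and A_65_P06106, -0.35 for Ptpre, 0.84 for Ptprs, -0.17 for Dusp19 probe A_65_P12402, -0.06 for Ptprj, 0.48 for Dusp14 probe A_65_P18772 and 0.17 for Ptp4a2. Leaving out a culture gave -0.016 to 0.096 for Ptpre, -0.12 to 0.11 for Ptprs, -0.14 to 0.05 for Ptpn21, -0.12 to 0.029 for Ptpns1, -0.051 to 0.25 for Ptpn12, -0.20 to 0.12 for Ptp4a2, -0.041 to 0.055 for Ptpn11 and -0.011 to 0.073 for Spry4. The causes were not tested.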
